A study of Mus musculus with 2 samples.

Results

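The genes described here encode the proteins of the cytosolic ribosome, and they were measured in cultured mouse long-term haematopoietic stem cells (LT-HSCs) with and without overexpressed Pot1a, a telomere-binding protein. They were chosen by name, as genes whose symbol is Rpl (large subunit) or Rps (small subunit) followed by a number and at most an a, x or y, together with Rplp0, Rplp1, Rplp2 and Rpsa. The rule found 57 of 22184 genes, of which 35 belong to the large and 22 to the small subunit. LT-HSCs (CD150+, CD48-, cKit+ and sca-1+ cells that are Lineage-) came from the bone marrow of male C57BL/6J mice with an age of 10 weeks and were pre-cultured for 1 day with stem cell factor and thrombopoietin. They then received a retrovirus, either a control vector (control-GFP) or one that carries full-length Pot1a, and GFP+ LT-HSCs were sorted after 3 more days. Both groups were thus infected, cultured and sorted in the same way, Pot1a is expressed from the retroviral vector, and how many mice were pooled is not given in the sources used here. With a single array per condition the spread between cultures is unknown, every value below is a description of 2 arrays, and no test was run.

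Each ribosome holds 1 copy of most of these proteins, and their genes are known to be transcribed and translated together. Their messenger RNAs begin with a run of pyrimidines, the 5′ terminal oligopyrimidine (TOP) tract, through which growth signals that pass through mTOR control their translation. Haematopoietic stem cells are known to make little protein, and in humans the loss of 1 copy of single ribosomal protein genes causes Diamond-Blackfan anaemia, a failure of red cell production. The genome also carries many processed pseudogenes of these genes, with sequences close to those of the messenger RNAs.

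Pyrimidine runs near the annotated starts are shown first because the TOP tract is the best known feature of these messenger RNAs. A run in this window need not be the terminal tract, since several open well before the annotated start. The lines give the 25 bases before and the 25 bases from the annotated start, 5′ to 3′ on the coding strand (RefSeq, GRCm38.p6), and capitals mark the longest run of C and T that opens with a C, where it reaches 6 bases. Rpl15, Rpl7a, Rpl34, Rps6, Rps18 and Rps27 are shown because results below turn on them and they hold such a run, and Rps7 and Rpsa because they hold none in this window. Rpl34 has a second annotated start, which is not shown.
Rpl15 (chr14:18270962-18271011, minus strand): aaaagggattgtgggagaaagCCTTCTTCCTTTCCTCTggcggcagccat
Rpl7a (chr2:26910782-26910831, plus strand): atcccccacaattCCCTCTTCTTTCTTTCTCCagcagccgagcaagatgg
Rpl34 (chr3:130730313-130730362, minus strand): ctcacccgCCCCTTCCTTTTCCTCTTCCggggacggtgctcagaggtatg
Rps6 (chr4:86857343-86857392, minus strand): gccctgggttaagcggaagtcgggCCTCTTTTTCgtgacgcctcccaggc
Rps18 (chr17:33955641-33955690, minus strand): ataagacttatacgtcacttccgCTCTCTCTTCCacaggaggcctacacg
Rps27 (chr3:90213624-90213673, minus strand): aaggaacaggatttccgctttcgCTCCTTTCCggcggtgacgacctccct
Rps7 (chr12:28635929-28635978, minus strand): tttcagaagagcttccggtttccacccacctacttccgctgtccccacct
Rpsa (chr9:120127741-120127790, plus strand): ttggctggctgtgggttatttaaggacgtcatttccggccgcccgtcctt

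Promoter sequences were matched for 44 of the 57 genes. A run of at least 6 bases stood in the window of 30 of these 44 genes (68.2%), against 38.7% of all 17492 protein-coding genes with a promoter in the table. In the 300 bases from 250 before to 50 after the start, the core of ETS factor sites (CGGAAG, both strands) was found in 30 of 44 (68.2%), against 23.5% of all genes. The YY1 motif (GCCATNTT, both strands) stood in 6 of 44 (13.6%, all genes 7.46%) and the GC box (GGGCGG, both strands) in 23 of 44 (52.3%, all genes 49.2%). The motifs can overlap, a gene with several annotated starts was counted if any start held the motif, and a match says nothing of binding.

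Pot1a itself had a log2 intensity of 8.08 in the control-GFP array and 11.06 in the Pot1a array, 7.87-fold higher in the latter. Of 10 listed genes of stem and progenitor cells, not all particular to LT-HSCs, 8 had a probe set (a set of probes read as 1 value). Their log2 values were 7.63 to 11.5 in control-GFP and 7.30 to 11.7 in Pot1a cells. They included Kit at 11.54 and 11.66 and Slamf1, which encodes CD150, at 8.99 and 8.90, both part of the sort. All 8 passed the filter on low values described below. Of the 8 genes, 5 were higher and 3 lower in the Pot1a array, beside 50.2% and 48.8% of all genes that passed. At least 1.2-fold higher were Gata2 and Cd34, each with a log2 difference of 0.32, beside 7.45% of all genes that passed. At least 1.2-fold lower was Procr (-0.33), beside 8.89%. For cell types outside the sort (lymphoid, myeloid, erythroid, platelet, vessel wall and stroma) 25 markers were listed, of which 20 had a probe set and 7 passed the filter on low values described below, Pf4, a gene of platelets and megakaryocytes, being the brightest at 9.73 and 9.72. The others that passed were Pecam1, Itga2b, Cdh5, Pdgfrb, Col1a1 and, through the Pot1a array only, Itgam at 5.91 and 6.04. Cd3e, Cd79a, Ly6g, Mpo and Klf1, markers of T, B, granulocytic, myeloid and erythroid cells, lay below the filter in both arrays. The log2 of the summed intensity of these 20 markers was 11.43 and 11.46. Of the 20, 13 were higher in the Pot1a array, beside 46.7% of all genes. Of the 7 that passed the filter 5 were higher, beside 50.2% of all genes that passed. Whether the signal of these markers came from other cells or from LT-HSCs themselves was not tested, and neither was their part in the results. Intensities were normalized between arrays, so each difference is relative to the rest of the array, and fewer cells of a type and less RNA per cell cannot be told apart.

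Most ribosomal protein genes were slightly lower in Pot1a-transduced LT-HSCs. Of the 57 genes, 44 had a lower value, 12 a higher value and 1 the same value in the Pot1a array, and the median log2 difference (Pot1a minus control-GFP) was -0.12, a level 1.09-fold lower. Of all 22184 genes 50.7% were lower and 46.7% higher. A filter kept genes at or above the gene-level median, a log2 of 6.05 in control-GFP or 6.03 in Pot1a, in at least 1 array, and 52 of the 57 passed. Of these, 41 were lower, a share of 78.8%, whereas 48.8% of all 11453 genes kept were lower, and 10 were higher, beside 50.2%. At least 1.2-fold lower were 8 of the 52, beside 8.89% of all genes kept, and at least 1.2-fold higher were 3, beside 7.45%. None of the 52 differed by 2-fold, beside 0.00873% of genes kept that were 2-fold lower and 0.0262% that were 2-fold higher. The members thus differed from all genes kept in how many lay below 0. Their share at least 1.2-fold lower was also larger than that of all genes kept, though it came to only 8 genes. Only through the Pot1a array did 2 members (Rps27 and Rpl39) pass the filter, and 2 (Rpl11 and Rpl27a) only through the control-GFP array. Their differences thus had to point that way. Without these 4, 39 of 48 were lower, 6 at least 1.2-fold lower and 1 at least 1.2-fold higher. The share over all genes above the filter in both arrays was not computed.

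**Figure D1:**
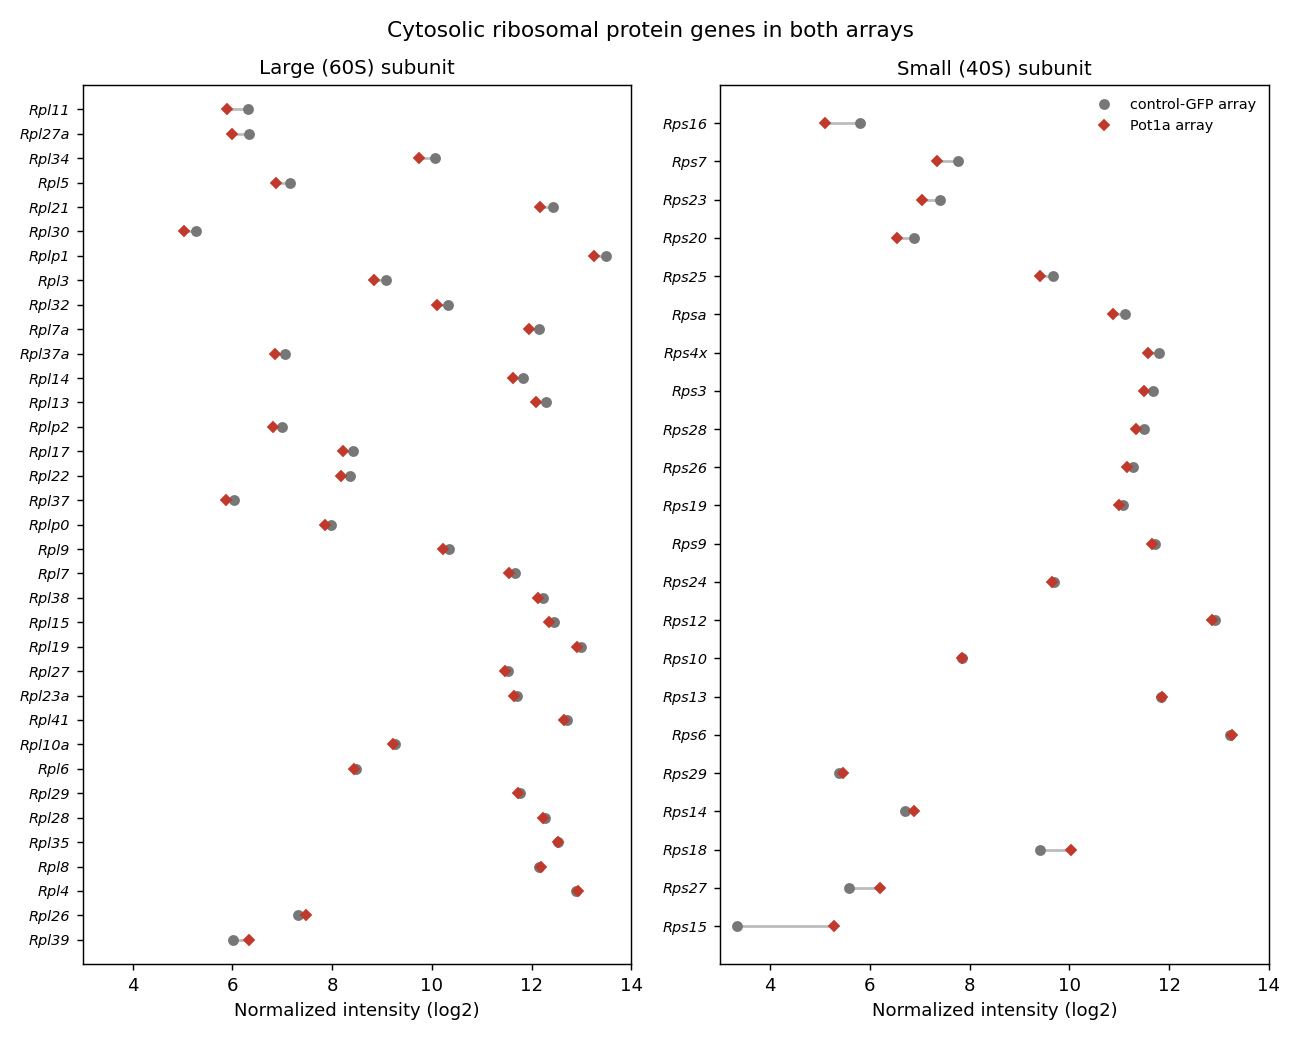
Normalized log2 intensity (x axis) of each of the 57 genes in the control-GFP array (grey circles) and in the Pot1a array (red diamonds), ordered by difference within the large and the small subunit. The Pot1a value lies to the left of the control-GFP value in 30 of 35 large subunit genes and 14 of 22 small subunit genes, and the longest line is that of Rps15, the dimmest gene.

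The size of the difference went with the brightness of the probe set. Splitting the genes by their mean log2 over both arrays, 29 were bright (at least 10), 15 lay between 7 and 10, and 13 were dim (under 7). The differences had an SD of 0.094 across the 29 bright genes, 0.26 across the 15 in the middle and 0.67 across the 13 dim ones. Without Rps15, which lay below the filter in both arrays, the SD of the dim ones was 0.36. Over all genes kept the SDs at these levels were 0.17, 0.19 and 0.23. The 13 dim members include all 5 that failed the filter, Rps16 (-0.71) among them, so the SDs of dim genes come from unlike sets. Of the bright genes 24 were lower (82.8%), with a median of -0.094, a narrow range from -0.27 to 0.050 and only Rpl21 past 1.2-fold. Among all 842 genes this bright, 42.0% were lower, 58.0% were higher and the median was 0.032. At 1.2-fold, 4.87% of them were lower and 4.87% higher, against 1 and 0 of the 29 members. Of the genes in the middle 12 of 15 were lower (median -0.18), beside 47.7% of all 7204 genes at this level (median 0.0075), and of the dim genes 8 of 13 (median -0.18), where 52.7% of all dim genes were lower without a filter. Both limits were chosen after the values were seen.

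**Figure D2:**
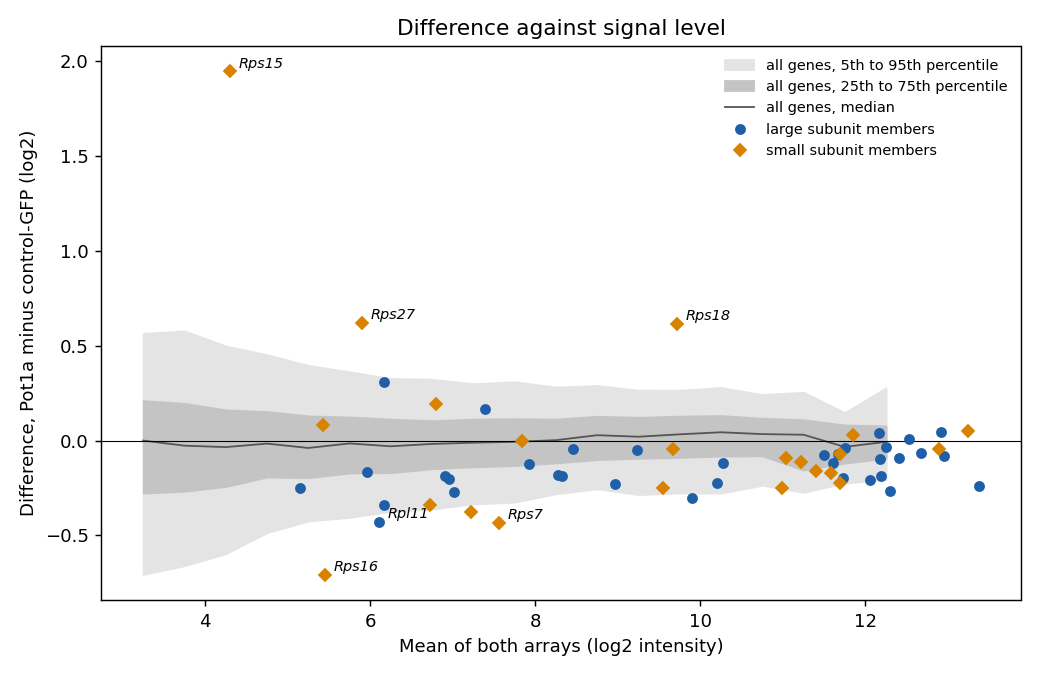
Difference between the arrays (y axis, log2, Pot1a minus control-GFP) against the mean of both arrays (x axis, log2 intensity) for large subunit genes (blue circles) and small subunit genes (orange diamonds). Grey bands hold the middle 50% and 90% of all genes in bins of the x axis with at least 20 genes, and the line is their median. The bright members on the right lie in a narrow strip mostly below 0, while members more than 0.30 from 0 have a mean log2 under 10.

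Among the bright large subunit genes, 16 of 19 were lower, with a median of -0.093. Rpl21 had a log2 intensity of 12.43 in control-GFP and 12.16 in Pot1a cells, a difference of -0.27, the lowest among bright genes. Its other probe sets differed by -0.20 and -0.21, so all 3 lay at a similar distance below 0. Rplp1, an acidic protein of the stalk that recruits elongation factors, was at 13.49 and 13.25 (-0.24). Rpl32 was at 10.32 and 10.10 (-0.22), and Rpl7a at 12.15 and 11.94 (-0.21). The higher ones were Rpl4 at 12.89 and 12.94, Rpl8 at 12.15 and 12.19, and Rpl35 at 12.53 in both arrays, with differences of 0.046, 0.041 and 0.0084. They were nearer to 0 than most of the bright genes that were lower.

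Among the bright small subunit genes, 8 of 10 were lower, with a median of -0.10. Rpsa, also known as a laminin receptor, was at 11.12 and 10.87 (-0.25), and Rps4x, the X-linked form of its protein, at 11.80 and 11.58 (-0.22). Rps3, which lies at the entry of the messenger RNA channel, was at 11.67 and 11.49 (-0.17). Rps28 was at 11.49 and 11.33 (-0.16). Rps6, the protein phosphorylated by S6 kinase downstream of mTOR, had the highest difference of all bright members, at 13.22 and 13.27 (0.050), and Rps13 was at 11.83 and 11.86 (0.030). Among bright genes the medians of both subunits thus lay at about the same distance below 0. Among dim genes 6 of 7 of the large subunit were lower (median -0.20), and 2 of 6 of the small subunit (median 0.14). Of all genes this dim 52.7% were lower without a filter. The dim members include Rpl30, Rpl37, Rps15, Rps16 and Rps29, which lay below the filter in both arrays. The median of the large minus that of the small subunit genes was -0.026 over the 52 genes kept and 0.012 over the bright ones, so the sign turned with the brightness of the genes taken.

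Over all 57 genes the small subunit was the more scattered, with differences from -0.71 to 1.95, against -0.43 to 0.31 in the large subunit. These extremes were dim. Rps15, a protein of the head of the small subunit, was at 3.33 and 5.27, 3.86-fold higher in the Pot1a array but below the filter in both, and without a filter 0.176% of all genes, and 0.269% of those with a mean log2 under 7, were 2-fold higher. Rps16 was at 5.80 and 5.09 (-0.71), also below the filter. Besides these, Rpl30 (-0.25), Rpl37 (-0.17) and Rps29 (0.081) did not pass. The symbols of Rps16 and Rpl30 also stand on brighter probe sets that carry other symbols too, and why the probe sets used are dim was not tested.

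Rps27 was at 5.59 and 6.21, 1.54-fold higher in the Pot1a array. Rps27 holds a zinc finger and lies on the platform side of the small subunit. It passed the filter only through the Pot1a array, and its symbol also stands on a brighter probe set that carries other symbols too, whose value cannot be given to 1 gene. Its paralog Rps27l, a gene known in human and mouse cells to be induced by p53, was at 8.92 and 8.69 (-0.23), a difference in the other direction. Rps18, a protein of the small subunit head, was at 9.41 and 10.02, 1.53-fold higher, while its other probe sets differed by 0.24 and -0.076 at log2 values between 5.33 and 6.11. Rpl39, a small protein of the exit tunnel, was at 6.02 and 6.33 (0.31). These 3 were the genes kept that were at least 1.2-fold higher, and only Rps18 lay above the filter in both arrays.

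The genes kept that were at least 1.2-fold lower were Rps7, Rpl11, Rps23, Rpl27a, Rps20, Rpl34, Rpl5 and Rpl21. Rps7, which is mutated in some patients with Diamond-Blackfan anaemia, was at 7.78 and 7.34, 1.35-fold lower. Rps23, which sits at the decoding centre, was at 7.41 and 7.04 (-0.38), and Rps20 at 6.89 and 6.55 (-0.34). Rpl34 was at 10.05 and 9.75, 1.23-fold lower, and Rpl27a at 6.33 and 5.99 (-0.34). Of these 8 genes only Rpl34 and Rpl21 reached a log2 of 10 in either array.

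Rpl5 and Rpl11 form a particle with 5S ribosomal RNA that can bind Mdm2 and so spare p53 when ribosome assembly fails. Rpl11 was at 6.32 and 5.89 (-0.43) and Rpl5 at 7.15 and 6.88 (-0.27), and both rested on 1 probe set each. The symbols of Rpl5, Rpl27a, Rpl34, Rplp2 and Rpl26 also stand on brighter probe sets that carry other symbols. Rpf2 and Rrs1, which place the particle in the large subunit, differed by -0.27 and -0.12, and Mdm2 by 0.11. The proteins of the stalk had differences of -0.24 for Rplp1, -0.18 for Rplp2 and -0.12 for Rplp0. All 3 with a probe set were thus lower by the one used. The second probe sets of Rplp1 and Rplp0 were higher, by 0.12 and 0.024. Proteins around the exit of the tunnel lay on both sides of 0, with 3 of 6 lower and a median of -0.030. Rpl17 was lowest at 8.41 and 8.23 (-0.18), and Rpl26, which in human cells is known to bind the p53 messenger RNA, was at 7.31 and 7.48 (0.17). In the small subunit, 7 of 11 head genes were lower (median -0.094) and 7 of 11 genes of the body and platform (median -0.0705). The head genes include Rps15, Rps16 and Rps29, which lay below the filter in both arrays. Of all genes 50.7% were lower without a filter, and 48.8% of those kept.

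**Figure D3:**
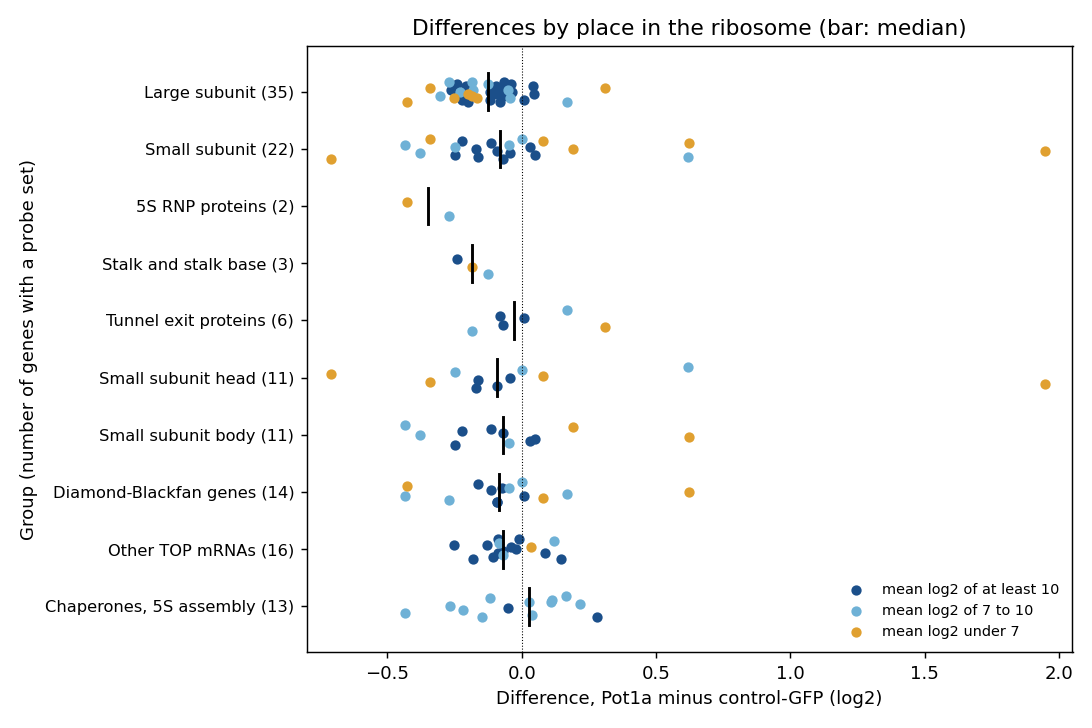
Differences (x axis, log2, Pot1a minus control-GFP) of the genes of each subunit, of groups by place in the ribosome, and of related lists (y axis, number of genes with a probe set in brackets). Each point is a gene, coloured by its mean log2 over both arrays, and black bars are medians. Stalk and 5S RNP genes all lie below 0, exit tunnel genes on both sides, and the widest spread is that of dim small subunit genes.

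Of the genes mutated in Diamond-Blackfan anaemia, 14 have a probe set here, with 9 lower, 4 higher and 1 equal and a median of -0.083. Without a filter 50.7% of all genes were lower. Rps19, the gene most often mutated in the disease, was at 11.08 and 10.99 (-0.094), Rps26 at 11.28 and 11.16 (-0.11), Rpl15 at 12.45 and 12.36 (-0.093), and Rps24 at 9.69 and 9.64 (-0.047). The members of this list furthest from 0 were Rps27 and Rps7, given above. Rps10 had the same log2 value, 7.84, in both arrays. Outside this list, Rps14, which is lost on 1 chromosome in the human 5q- syndrome, was dim at 6.70 and 6.89 (0.19). The median of the disease genes was near that of all members, while the single genes ran from -0.43 to 0.62.

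Of the 57 genes, 24 had more than 1 probe set, and in 13 of them the probe sets differed in sign. The brightest probe set stood for the gene. In Rps9 it was at 11.72 and 11.65 (-0.0705), while another was at 8.64 and 9.19 (0.55). In Rpl4 a second probe set was at 7.99 and 8.75 (0.76), and in Rps26 a second one was at 5.32 and 5.71 (0.38). For Rpl29 the values were -0.040 for the brightest and 0.30 for the other, and for Rpl3 they ran from -0.23 to 0.16 over 3 probe sets. In Rpl13, Rpl27, Rpl7, Rplp0, Rplp1 and Rps20 the brightest of 2 probe sets was lower and the other higher in the Pot1a array, by 0.024 (Rplp0) to 0.18 (Rpl13). Of 5 probe sets of Rpl41, 4 were bright and lower, and the dim one was higher by 0.13. Bright probe sets were lower more often than dim ones. Of 36 distinct bright probe sets 31 were lower (median -0.11), and of 27 dim ones 16 (median -0.093). Among the 13 genes with opposite signs, the probe set used was lower in 11, with Rps18 and Rpl35 as the exceptions. In 3 genes, Rps12, Rps19 and Rpl23a, some probe sets held identical values in both arrays, 6 of them in Rps12, and copies were counted once in the counts of distinct probe sets.

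**Figure D4:**
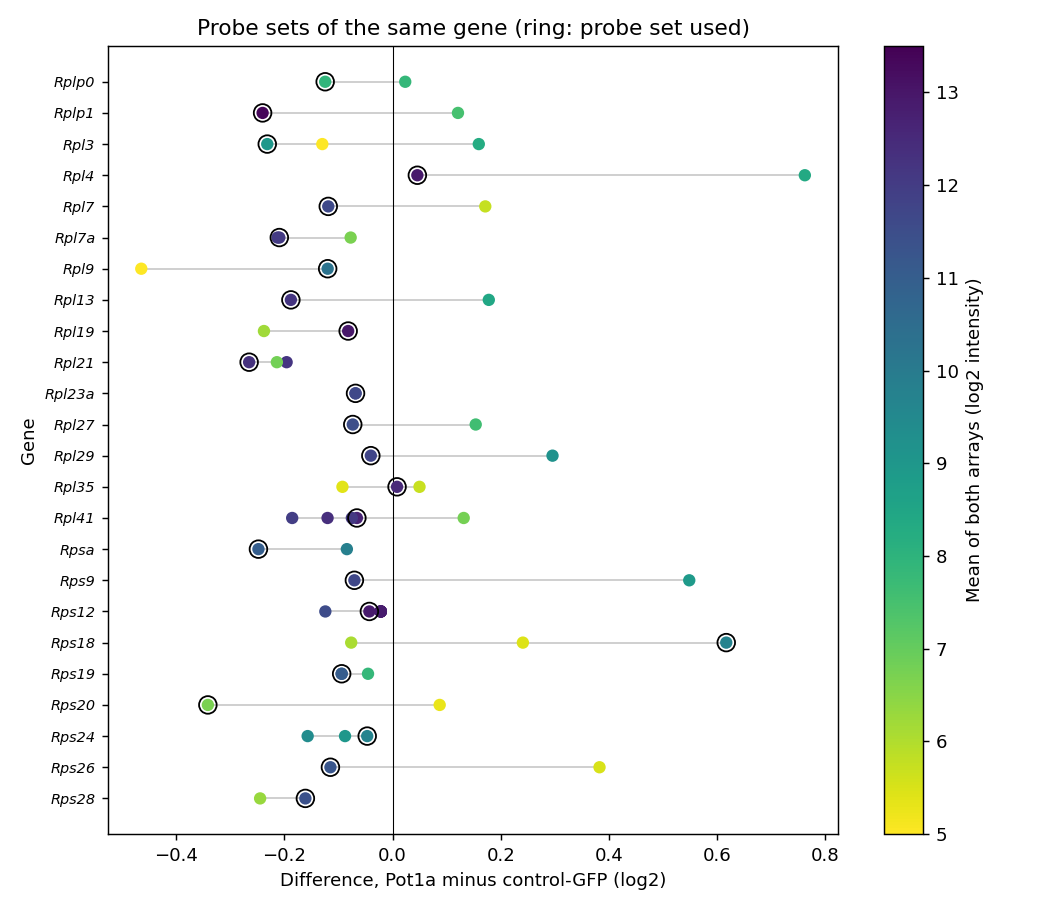
Differences (x axis, log2, Pot1a minus control-GFP) of every probe set of the 24 genes with more than 1 (y axis). Colour gives the mean log2 intensity of both arrays and a ring marks the probe set that stands for the gene. In 13 genes points lie on both sides of 0, and the points furthest to the right are dimmer probe sets of Rpl4 and Rps9 and the ringed one of Rps18.

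A further 57 probe sets carry a ribosomal protein symbol beside other symbols and were not used for single genes. Among them 43 were lower (median -0.067) and 14 higher, and of the 19 with a mean log2 of at least 10, 16 were lower (median -0.037). The share over all probe sets with several symbols was not computed. Of all single-symbol genes 50.7% were lower without a filter, and 42.0% of those this bright. The symbols of 20 members stand on shared probe sets too, so these are not independent of the members. RefSeq lists 76 protein-coding genes that fit the naming rule, and of the 19 without a probe set of their own, 12 stood on these shared ones. In 10 of the 57 members a shared probe set was brighter than the one used, among them 6 dim members.

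Proteins of the ribosome whose symbols fall outside the rule lay close to 0 where they were bright. Rps3a1 was at 12.49 in both arrays (0.0021), and Fau, which encodes a small subunit protein fused to a ubiquitin-like one, at 11.79 and 11.83 (0.035). Among paralogs, Rps4l was at 7.38 and 6.91 (-0.47) and Rpl39l, known from the testis, at 6.70 and 6.31 (-0.39). In the list as a whole 8 of 11 genes with a probe set were lower (median -0.15), beside 50.7% of all genes. Of the 8 that passed the filter 6 were lower (median -0.20). The list also held Rps19bp1 (-0.17) and Rsl24d1 (-0.14), which are not themselves ribosomal proteins.

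Other messenger RNAs with a TOP tract, which share this control but encode translation factors and other abundant proteins, gave a similar picture. Of 16 genes with a probe set 12 were lower (median -0.070), beside 48.8% of all genes kept. Of the 12 bright ones 10 were lower (median -0.079), beside 42.0% of all bright genes. The elongation factor subunit Eef1b2 was at 11.20 and 10.95 (-0.25) and the initiation factor subunit Eif3h at 11.53 and 11.35 (-0.18), while Eef1a1 was at 13.14 and 13.28 (0.15) and Tpt1 at 9.03 and 9.15 (0.12). Genes for chaperones, importins and assembly factors of ribosomal proteins showed no common direction, with 6 of 13 lower and a median of 0.027. The 13 include Mdm2 (0.11) and Nacc1 (0.28), which are none of these, and the median was above 0 only with both counted. Pdcd2l, related to a chaperone of a small subunit protein, was at 7.85 and 7.42 (-0.43), and Tsr2, the chaperone of Rps26, at 8.20 and 8.41 (0.22).

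Within the bright ribosomal protein genes, with a matched promoter, those with a pyrimidine run in the window shown above were not further below 0 than those without. Of 15 with a run 11 were lower (median -0.082), and of 7 without 7 were lower (median -0.16). A gene without a run in this window need not lack a terminal tract. The split thus does not separate messenger RNAs with a TOP tract from those without, and translation was not measured. The 7 other bright genes, Rpl21, Rplp1 and Rpl32 among them, had no matched promoter, and 6 of them were lower (median -0.12). For comparison, 15 of 18 bright proteasome genes were lower, with a median of -0.17, further from 0 than the -0.094 of the bright ribosomal protein genes. Of all bright genes 42.0% were lower. Mitochondrial ribosomal protein genes, of which only 2 were bright, had a median of -0.12 over 69 genes kept. Of these 51 were lower, and of 36 proteasome genes kept 32, beside 41 of 52 members and 48.8% of all genes kept. At least 1.2-fold lower were 13 of the 69 and 5 of the 36, beside 8 of the 52 members and 8.89% of all genes kept. With 1 array per condition, none of these lists can be said to differ from another.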

How the data were processed

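RNA of LT-HSCs was measured on 1 Affymetrix array per group, control-GFP and Pot1a. Deposited values are linear normalized intensities of 34365 probe sets, with medians of 53.1 and 52.6. Their methods, written for arrays of aged cells, give Expression Console with log2 transformation, RMA (which summarizes the probes of a set) and quantile normalization, and no source used here gives the settings for this pair of arrays. Whether values were centred, and which lie at background, is unknown, as no detection calls were used. Platform annotation gave 1 symbol to 23525 probe sets, several to 1816 and none to 9024.

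Log2 was taken, the probe set with the highest mean stood for a gene, and differences are Pot1a minus control-GFP. No test between conditions was possible. Genes were counted at 1.2-fold. Named genes are the 8 lowest and 6 highest members (taken among those kept), at least 3 of each per subunit, members whose probe sets differ in sign, and up to 4 genes furthest from 0 in related lists. Other genes were named after their values were seen. The members and lists were chosen with earlier results of these data known. Alternatives were the mean of probe sets, each probe set on its own, other filters, centring, a loess trend correction, an offset of 16, updated symbols and other folds. Bright members alone, members above the filter in both arrays, and distinct probe sets were added after seeing the data. Counting steps were tested on simulated data. The software was pandas 2.3.3 and numpy 2.4.6 under Python 3.11.15, with matplotlib 3.10.9 for plots and statsmodels 0.14.6 for loess.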

Additional observations from a re-analysis of the deposited data

How the results depend on the processing

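No paired analysis was possible because only 1 array stands for each group, and no replicate could be left out. The median difference of the members stayed below 0 under every alternative run, from -0.12 as reported to -0.078 when the probe sets of a gene were averaged. The large minus small subunit median, -0.026 as reported, was -0.0029 with that average, -0.042 without a filter, -0.015 over members above the filter in both arrays, and 0.012 over members with a mean log2 of at least 10, where the sign turned. Of 84 probe sets counted on their own, copies with identical values included, 64 were lower and 6 at least 1.2-fold higher, and with copies counted once, a choice made after seeing the data, 57 of 77 were lower, 6 were at least 1.2-fold higher, and the large minus small subunit median was -0.00958. A filter at the 75th percentile left 40 members, of which 2 were at least 1.2-fold lower and 1 higher. At 1.5-fold 0 members were lower and 2 higher, and at 2-fold 0 were lower and 0 higher. Members above the filter in both arrays held 1 gene at least 1.2-fold higher. The 29 bright members held 24 lower genes, 1 of them at least 1.2-fold lower, and 0 at least 1.2-fold higher. Among the 26 genes followed singly, 6 changed sign, all with the mean of their probe sets, namely Rpl27 (0.040), Rpl29 (0.13), Rpl35 (-0.011), Rpl7 (0.026), Rps26 (0.13) and Rps9 (0.24). With that average 7 more kept their sign but moved by over 1.5 times, namely Rps20 (-0.13) and Rps18 (0.26), which no longer reached 1.2-fold, and Rpl4 (0.40), Rplp1 (-0.060), Rplp0 (-0.051), Rpl3 (-0.067) and Rpl13 (-0.0049). Centring, the trend correction, the offset and updated symbols changed the direction of no result.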
